A study of Mus musculus with 11 samples.

Results

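Mitochondrial fatty acid activation and beta-oxidation is described here through 33 mouse genes, the enzymes that turn long-chain fatty acids and acetate into coenzyme A esters, bring them into the mitochondrion and shorten them to acetyl-CoA. The genes were chosen by symbol, as the rows of the heart count table whose GENCODE GRCm38 gene name is one of the 33, and all 33 were found among the table's 55487 rows. The rule is a list of symbols and reads no measured value, though the list was drawn up with earlier results of these data known. All 33 passed the filter on low counts that left 23779 genes for testing.

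The hearts were those of female mice of the inbred strain C57BL/6NTac, whose diets began at 8 weeks of age and lasted 24 weeks. Treated mice ate an obesogenic diet, a pellet with 60.3% of its energy from fat offered with sweetened condensed milk, and from week 16 were gavaged weekly, on consecutive days, with 5 mg/kg of dasatinib plus 50 mg/kg of quercetin in 10% PEG400 (n = 3 libraries). Obese mice ate the same diet and were gavaged with the 10% PEG400 vehicle alone (n = 4 libraries). Control mice ate a diet with 10.4% of its energy from fat (n = 4 libraries), with any gavage not given in the sources used here, so diet and gavage cannot be told apart. Dasatinib, which inhibits tyrosine kinases, is paired with the plant flavonoid quercetin as a senolytic cocktail, a treatment meant to clear senescent cells. The comparison of obese with control hearts asks what the obesogenic diet did to cardiac expression, and the comparison of treated with obese hearts asks what the cocktail changed. The labels name heart RNA without saying whether the libraries of a group are different animals, so the p-values reflect library-to-library spread, part of which may be technical.

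The adult heart draws most of its energy from fatty acids. Acyl-CoA synthetases on the outer membranes activate a fatty acid, carnitine palmitoyltransferases move the acyl chain onto carnitine and back so that a carrier can bring it across the inner membrane, and a repeating cycle of dehydrogenation, hydration, a further dehydrogenation and thiolysis releases acetyl-CoA. The electrons of the first step pass through the electron transfer flavoproteins to the respiratory chain, and auxiliary isomerases and a reductase prepare the double bonds of unsaturated fats. Malonyl-CoA, the first intermediate of fat synthesis, inhibits the entry step.

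Levels are CPM values, the deposited counts divided by their library's size in M counts, with sizes scaled by TMM, a factor that sets most genes to equal levels between libraries. Differences are log2 fold changes from edgeR's quasi-likelihood test, and a gene is said to have risen or fallen where its p, adjusted over all 23779 genes by Benjamini-Hochberg, was under 0.05. Library totals ran from 64.2 to 72.3 M counts in treated, 52.7 to 67.2 M in obese and 73.1 to 103.3 M in control libraries, so the control libraries were the deepest 4. The genes listed here as ventricular myocyte markers include some, such as Myh6, that are not particular to the ventricle. The listed genes summed to 82924 CPM or more in each treated, 74506 or more in each obese and 78162 or more in each control library. Most of each sum was Ttn, with 53422.5 CPM or more in each treated, 48858 or more in each obese and 49029 or more in each control library. Myl2 had 1191 to 2313 CPM in treated, 1140 to 2220 CPM in obese and 2059 to 3708 CPM in control libraries. Atrial markers summed to 2865 CPM in treated replicate 2, 5841 CPM in treated replicate 3 and 2267 CPM in obese replicate 3, against 71.5 to 257 CPM in the other 8 libraries. These 3 libraries stand apart by this measure, and counts without them are given beside the results. Loci that GENCODE types as sense-intronic or TEC (awaiting experimental checks) are summed below as the intronic share, which was 0.509% to 0.671% of counts in treated, 0.663% to 0.811% in obese and 0.286% to 0.590% in control libraries.

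Of the 33 genes, 28 fell and 2 rose in obese hearts relative to control hearts, and 3 did not pass the test. Over all genes tested, 15.7% fell and 14.4% rose in this comparison, 30.1% in all. With upper-quartile scaling 12.3% of all genes fell and 18.4% rose, and with library totals and no scaling factor 4.04% fell and 38.1% rose, while 22 of the 33 genes fell and 3 rose with those unscaled totals. At an unadjusted p under 0.05 the count was 32 of the 33 genes, against 42.7% of all genes. The median log2 fold change of the 33 genes was -0.88, against 0.11 for all genes tested, a difference of -0.99. Every gene of the entry step, of hydration to thiolysis, of the double-bond enzymes and of electron transfer fell, and the exceptions lay among the synthetases and the acyl-CoA dehydrogenases. In 27 of the 33 genes each obese library was below each control library, a pattern found in 14.7% of all genes tested. Lower expression per cell and a smaller share of myocytes cannot be told apart in RNA from whole hearts. Only RNA is described here, and protein, enzyme activity and the use of fatty acids were not measured in these data.

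The genes that rose, Acsl6 and Acad10, were among the 5 with the lowest levels per transcript length in control hearts. Without the 3 libraries high in atrial markers, 29 genes fell and 2 rose, against 12.9% and 11.3% of all genes tested. Leaving out any single library kept the count of genes that fell between 27 and 29, while 4917 to 8153 of all genes were called in either direction. With the intronic share of each library as a covariate, a measure in which the obese and control groups did not overlap, 0 of the 33 genes passed the test in either direction, as against 155 of all genes tested, and the median of the 33 genes was -0.37. The part of this share in the differences between obese and control hearts cannot be told apart from diet.

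**Figure D1:**
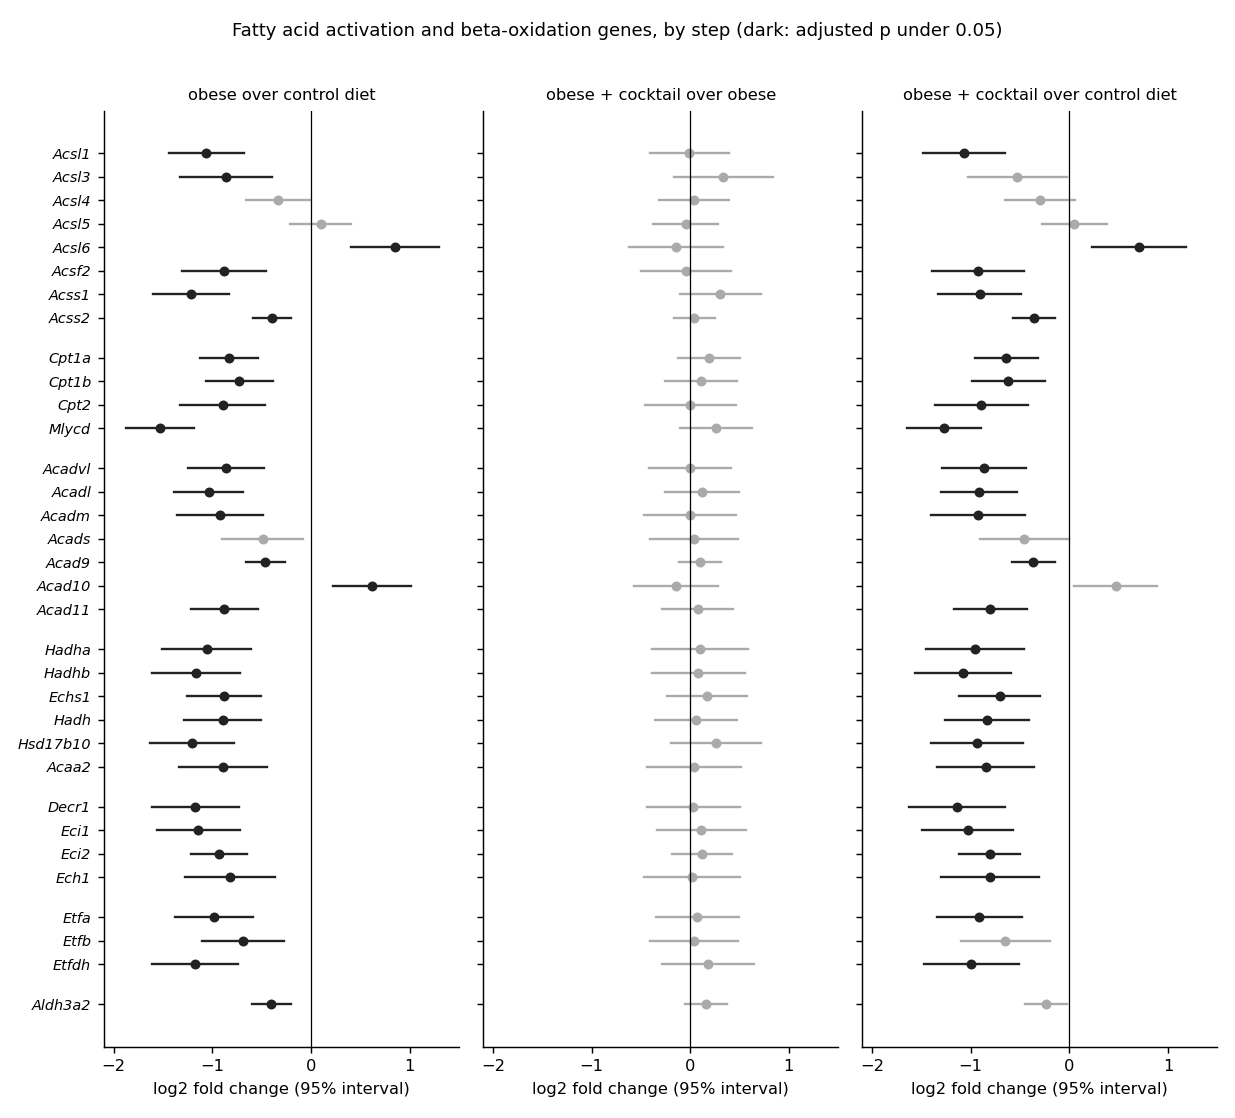
Log2 fold change (horizontal axis) of each of the 33 genes, grouped by step from activation at the top to electron transfer and aldehyde oxidation at the bottom, in 3 comparisons. Points are edgeR estimates, lines 95% intervals, and dark symbols mark an adjusted p under 0.05. Most points of the left and right panels lie near -1, with Acsl6, Acad10 and Acsl5 on the right of 0. All intervals of the middle panel cross 0.

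The 33 genes spanned a wide range of levels, compared here as CPM per kb of the principal transcript. The ranks rest on that length: in CPM without length, Hadhb was above Ech1 in each control library. Ech1, a dienoyl-CoA isomerase of the unsaturated-fat branch, was the highest in every group, at 465 ± 131 CPM per kb in treated, 459.5 ± 121 in obese and 811 ± 110.3 in control libraries (mean ± SD over 3, 4 and 4 libraries). Hadhb, the thiolase subunit of the trifunctional protein, was second in every group. It averaged 303 ± 68.2 CPM per kb in treated, 287 ± 73.0 in obese and 642 ± 113 in control libraries (mean ± SD over 3, 4 and 4 libraries). At the low end, Acsl3 averaged 0.814 ± 0.14 CPM per kb in treated, 0.644 ± 0.155 in obese and 1.17 ± 0.281 in control libraries (mean ± SD over 3, 4 and 4 libraries). The order changed little at the top: Cpt1b ranked 3 in treated and in obese libraries and 6 in control libraries, where Acaa2, Acadl, Hadha and Cpt1b at ranks 3 to 6 had means within about 1 SD of each other.

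**Figure D2:**
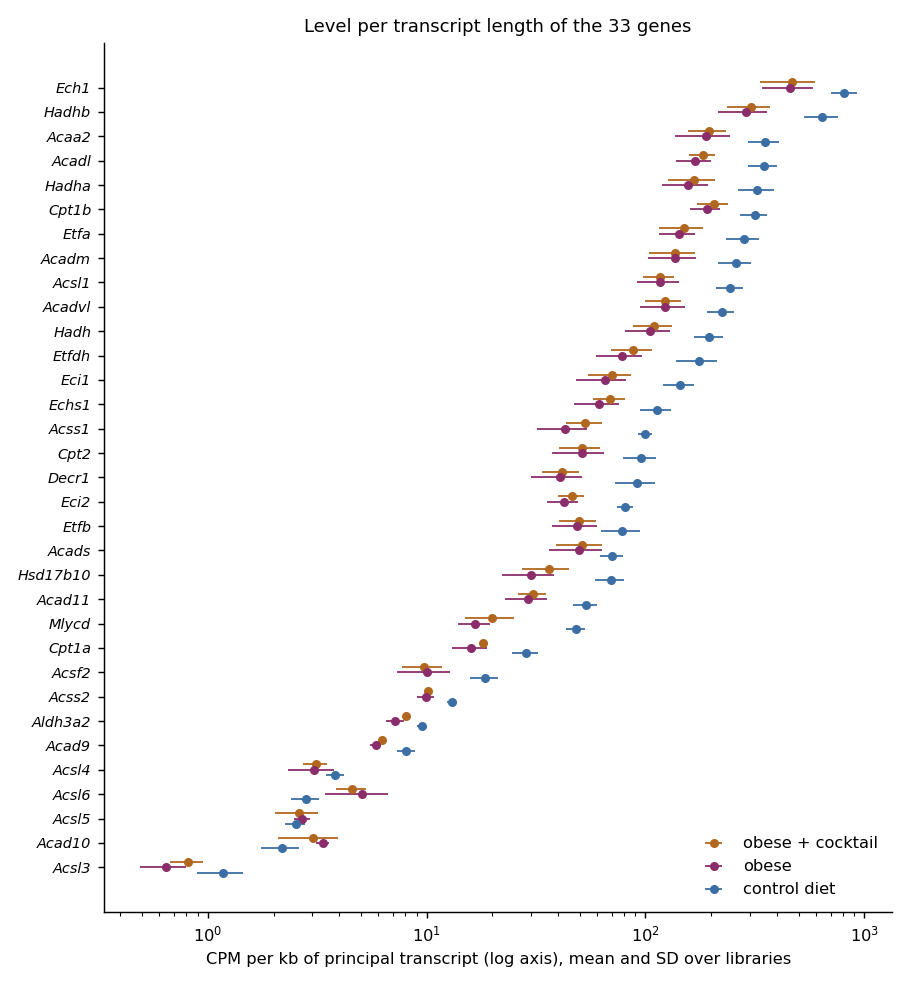
Mean level of each gene in CPM per kb of principal transcript (log axis), with SD over 3 treated, 4 obese and 4 control libraries. Genes are ordered by their control mean, from Ech1 at 811 to Acsl3 at 1.17, and the control points lie to the right of the treated and obese points for all genes except Acsl6, Acsl5 and Acad10.

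Promoter sequence was examined for letters that transcription factors of fat oxidation are known to bind, because most of the genes moved together. RefSeq promoter windows of GRCm38.p6, from 250 bases before to 50 bases after a transcript start, were found for 29 of the 33 genes, with 32 windows in all. Hadha and Hadhb, which encode the 2 subunits of the trifunctional protein, lie head to head on chromosome 5 and share the 85 bases between their annotated starts (GRCm38 chr5:30155163-30155247, plus strand, Hadhb reading rightward and Hadha leftward). Capitals mark GGGCGG, the GC box bound by Sp1-type factors.
Hadha-Hadhb inter-start stretch: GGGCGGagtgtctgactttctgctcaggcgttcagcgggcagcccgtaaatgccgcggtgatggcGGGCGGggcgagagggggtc
GGGCGG on either strand was found in 25 of the 32 windows (78.1%) and in 57.9% of 15296 promoters of tested protein-coding genes. The TATA letters TATAAA were in 0 of 32 windows and in 8.01% of all promoters.

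DR1, the tandem repeat of 2 AGGTCA half-sites 1 base apart that PPAR and RXR receptor pairs bind, was searched on both strands with at most 2 mismatches, and it was found in 2 of the 32 windows (6.25%) against 3.07% of all promoters. Both stretches are shown, since they are the only matches in this set, on the gene's own strand with the match in capitals: Etfa at chr9:55512284-55512344 (minus strand) and Echs1 at chr7:140116468-140116528 (minus strand).
Etfa upstream: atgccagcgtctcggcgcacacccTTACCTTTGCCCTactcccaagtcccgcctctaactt
Echs1 upstream: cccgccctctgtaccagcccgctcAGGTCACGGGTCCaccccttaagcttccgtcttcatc
TCAAGGTCA, bound by estrogen-related receptors, contains the half-site AGGTCA. Its exact letters were in 1 of 32 windows, against 0.275% of all promoters, and with at most 1 mismatch in 3 of 32 (9.38%) against 5.29%. The window with the exact letters belongs to Acsl6, a gene that rose, and is one of 3 RefSeq starts of that gene (chr11:54303574-54303823, plus strand). Capitals mark its 3 matches with at most 1 mismatch, all on the opposite strand.
Acsl6 upstream: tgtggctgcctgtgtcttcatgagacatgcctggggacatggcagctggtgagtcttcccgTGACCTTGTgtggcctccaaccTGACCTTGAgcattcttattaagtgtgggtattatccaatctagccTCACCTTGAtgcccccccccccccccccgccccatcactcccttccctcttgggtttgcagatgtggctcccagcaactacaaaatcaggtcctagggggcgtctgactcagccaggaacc
The half-site AGGTCA alone was in 5 of 32 windows (15.6%) against 13.0% of all promoters. These matches describe letters in a window and are not shown to be binding sites, since binding was not measured.

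Activation begins with the long-chain acyl-CoA synthetases, of which Acsl1 is the main form of the heart. Acsl1 (chr8:46471037-46536051, plus strand) had 503, 488 and 369 CPM in treated libraries, 496, 355, 396 and 576 CPM in obese libraries and 992, 764, 972 and 1072 CPM in control libraries. Every obese and treated library was below every control library. Acsl1 fell 2.08-fold in obese hearts, with a log2 fold change of -1.06 ± 0.18 (SE; edgeR adjusted p = 0.00112). Acsl3, a form found on lipid droplets and the endoplasmic reticulum, also fell, from a low level, at 2.54 ± 0.611 CPM in obese libraries and 4.63 ± 1.11 CPM in control libraries (SD, n = 4 each) and a log2 fold change of -0.86 ± 0.22 (SE; edgeR adjusted p = 0.0102).

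Acsl6, best known as a brain form that prefers polyunsaturated fatty acids in mice, went the other way. It had 11.5, 10.3 and 13.9 CPM in treated libraries, 10.9, 8.41, 17.8 and 15.5 CPM in obese libraries and 7.03, 6.63, 8.83 and 6.65 CPM in control libraries. The treated libraries all lay above the control libraries, and 1 obese library, replicate 2, lay below the highest control library. Acsl6 rose 1.80-fold in obese hearts, with a log2 fold change of 0.85 ± 0.21 (SE; edgeR adjusted p = 0.00879). Acsl4, which prefers arachidonic acid, averaged 16.1 ± 3.84 CPM in obese libraries and 20.3 ± 1.94 CPM in control libraries (SD, n = 4 each), with a log2 difference of -0.33 (95% interval -0.66 to -0.00; edgeR adjusted p = 0.114). Its fitted value was 0.11, of opposite sign, when library totals were used with no scaling factor. Acsl5 averaged 11.5 ± 0.978 CPM in obese libraries and 10.7 ± 1.12 CPM in control libraries (SD, n = 4 each), a log2 difference of 0.10 (95% interval -0.21 to 0.40; edgeR adjusted p = 0.634).

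Summed over the 5 Acsl genes in CPM per kb of principal transcript, Acsl1 made up 91.0% ± 2.53 in treated (SD, n = 3), 90.8% ± 2.53 in obese (SD, n = 4) and 95.9% ± 0.242 in control libraries (SD, n = 4). The share ran from 87.4% to 93.0% in obese libraries and from 95.6% to 96.1% in control libraries, so these groups did not overlap. The other 4 forms together had 11.1 ± 1.44 CPM per kb in treated, 11.5 ± 2.43 in obese and 10.3 ± 0.973 in control libraries, and these ranges overlapped.

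The genes of the remaining activating enzymes fell. Acss1, which makes acetyl-CoA from acetate in the mitochondrial matrix, had 232, 180.3 and 164 CPM in treated libraries, 178, 104, 147 and 193 CPM in obese libraries and 366, 322, 375 and 382 CPM in control libraries. Each obese and treated library was below each control library. Its log2 fold change in obese hearts was -1.22 ± 0.18 (SE; edgeR adjusted p = 0.000632), the second largest fall of the 33 genes. Acsf2, a mitochondrial synthetase for medium-chain acids, averaged 31.7 ± 8.53 CPM in obese libraries and 58.5 ± 8.73 CPM in control libraries (SD, n = 4 each), with a log2 fold change of -0.88 ± 0.20 (SE; edgeR adjusted p = 0.0059). Acss2, the acetate enzyme of cytosol and nucleus, averaged 29.1 ± 2.67 CPM in obese libraries and 38.3 ± 2.06 CPM in control libraries (SD, n = 4 each) and fell less, with a log2 fold change of -0.40 ± 0.09 (SE; edgeR adjusted p = 0.00623), which was 0.025, of opposite sign, with library totals and no scaling factor.

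Each of the 4 genes of entry into the mitochondrion was lower, and Mlycd changed more than any other of the 33. Mlycd encodes malonyl-CoA decarboxylase, which removes the inhibitor of the carnitine palmitoyltransferase 1 step. Mlycd (chr8:119394878-119411102, plus strand) had 53.9, 40.9 and 32.9 CPM in treated libraries, 37.1, 27.6, 35.7 and 41.8 CPM in obese libraries and 111, 88.3, 105 and 106 CPM in control libraries. The highest of the treated and obese values, that of treated replicate 1, was far below the lowest control value. It fell 2.88-fold in obese hearts, averaging 35.5 ± 5.88 CPM in obese libraries and 102 ± 9.87 CPM in control libraries (SD, n = 4 each), and its log2 fold change was -1.53 ± 0.16 (SE; edgeR adjusted p = 9.86e-05).

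Carnitine palmitoyltransferase 1 has a muscle form, Cpt1b, and a liver form, Cpt1a, and the heart expresses both. Cpt1b had 682, 609 and 488 CPM in treated libraries, 608, 509, 450.4 and 633 CPM in obese libraries and 939, 761, 877 and 1069.8 CPM in control libraries. Cpt1a had 77.2, 79.9 and 78.6 CPM in treated libraries, 56.6, 73.1, 84.7 and 61.1 CPM in obese libraries and 139, 111, 134 and 105 CPM in control libraries. For both genes each obese and treated library was below each control library. The log2 fold change in obese hearts was -0.73 ± 0.16 (SE; edgeR adjusted p = 0.00478) for Cpt1b and -0.83 ± 0.14 (SE; edgeR adjusted p = 0.00111) for Cpt1a. Gm44502, a gene that GENCODE types as protein-coding on the same strand, shares 81.4% of the exon bases of Cpt1b and held 2.74% as many counts.

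The balance of the 2 forms was measured as the Cpt1a share of Cpt1a plus Cpt1b, per kb of merged exon length. The share was 5.62% ± 0.949 in treated, 5.41% ± 1.76 in obese and 5.66% ± 1.02 in control libraries (mean ± SD over 3, 4 and 4 libraries). The level of the share rests on the length used: per kb of principal transcript it was 8.30% in treated, 7.99% in obese and 8.36% in control libraries, and in counts without length 11.9% in treated, 11.4% in obese and 11.96% in control libraries. The 3 ranges overlapped. In two-sided exact permutation tests over libraries, p was 0.686 for obese against control, 0.857 for treated against obese and 0.971 for treated against control, and 0.971 for each after adjustment over the 3 tests. The smallest p possible was 0.0286 in the first test and 0.0571 in the other tests. After adjustment over the 3 tests no outcome could have been under 0.05, so the adjusted values could not show a difference. Cpt2, which rebuilds the acyl-CoA inside the inner membrane, averaged 121 ± 32.6 CPM in obese libraries and 226 ± 38.2 CPM in control libraries (SD, n = 4 each), with a log2 fold change of -0.90 ± 0.20 (SE; edgeR adjusted p = 0.00545).

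The first oxidation step is shared among acyl-CoA dehydrogenases that differ in the chain length they accept. Acadl, the long-chain form, had 369, 388 and 296 CPM in treated libraries, 344, 258, 297 and 394 CPM in obese libraries and 723, 514, 688 and 732 CPM in control libraries. Every obese and treated library was below the lowest control library, replicate 2. Acadl fell 2.05-fold in obese hearts, with a log2 fold change of -1.04 ± 0.16 (SE; edgeR adjusted p = 0.000841). Acadvl, the very-long-chain form of the inner membrane, averaged 266 ± 61.4 CPM in obese libraries and 484 ± 68.4 CPM in control libraries (SD, n = 4 each), with a log2 fold change of -0.86 ± 0.18 (SE; edgeR adjusted p = 0.00389). On the opposite strand, exons of Dvl2 cover 42.9% of its exon bases, and the use of strand in counting is unknown from the notes. Acadm, the medium-chain form, averaged 279 ± 69.4 CPM in obese libraries and 529.7 ± 90.2 CPM in control libraries (SD, n = 4 each), with a log2 fold change of -0.92 ± 0.20 (SE; edgeR adjusted p = 0.00519).

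Acads, the short-chain form, was the only one of these 4 that did not pass the test. It had 117, 97.2 and 72.1 CPM in treated libraries, 104, 73.6, 70.9 and 124 CPM in obese libraries and 143, 108, 132 and 141 CPM in control libraries. Obese replicate 4 and treated replicate 1 lay within the control range and the other obese and treated libraries below it, so the groups overlapped. The log2 difference between obese and control hearts was -0.49 (95% interval -0.91 to -0.08; edgeR adjusted p = 0.068). Acads was thus not shown to differ, nor to be the same, at this spread.

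Acad9, also an assembly factor of respiratory complex I, averaged 23.0 ± 1.38 CPM in obese libraries and 31.7 ± 2.99 CPM in control libraries (SD, n = 4 each), and its log2 fold change of -0.46 ± 0.09 (SE; edgeR adjusted p = 0.00311) was among the smallest that passed. Acad11 averaged 100.4 ± 21.7 CPM in obese libraries and 185 ± 23.3 CPM in control libraries (SD, n = 4 each), with a log2 fold change of -0.88 ± 0.16 (SE; edgeR adjusted p = 0.00173). Acad10 had 13.4, 11.6, 13.6 and 12.8 CPM in obese libraries, against 6.78, 10.4, 8.88 and 7.40 CPM in control libraries. Each obese library was above each control library, as in 13.8% of all genes tested, and its log2 fold change was 0.62 ± 0.18 (SE; edgeR adjusted p = 0.0231). The rise lost the threshold without control replicate 1 (adjusted p = 0.0755, edgeR), control replicate 4 (0.0709) or obese replicate 1 (0.0527).

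Acad10 is uncertain for a second reason. Its transcript is 95.3% identical over 1614 bases to Acad12, the neighbouring gene, which held 480% as many counts and itself fell in obese hearts, with a log2 fold change of -1.16 ± 0.15 (SE; edgeR adjusted p = 0.00033). With the counts of both genes summed, the log2 fold change was -0.84 and of opposite sign (edgeR adjusted p = 0.000756), 29 of the 33 genes fell and 1, Acsl6, rose. Over all genes tested, 15.7% fell and 14.4% rose in that fit.

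All 6 genes of the later steps of the cycle fell, with log2 fold changes between -1.21 and -0.88. Hadha and Hadhb are the alpha and beta subunits of the trifunctional protein, which carries out the last 3 steps on long chains, and their shared start region is printed above. Hadha had 764, 768 and 482 CPM in treated libraries, 683, 492, 524 and 811 CPM in obese libraries and 1444, 941, 1369 and 1463 CPM in control libraries. Hadhb had 716, 687 and 461 CPM in treated libraries, 615, 443, 506 and 784 CPM in obese libraries and 1411, 1024, 1259.9 and 1566 CPM in control libraries. For both subunits, control replicate 2 was the lowest control library and was still above every obese and treated library. The log2 fold change in obese hearts was -1.06 ± 0.21 (SE; edgeR adjusted p = 0.00302) for Hadha and -1.16 ± 0.21 (SE; edgeR adjusted p = 0.00161) for Hadhb.

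The ratio of Hadhb to Hadha counts was 0.929 ± 0.0311 in treated (SD, n = 3), 0.933 ± 0.0381 in obese (SD, n = 4) and 1.01 ± 0.0794 in control libraries (SD, n = 4), and the ranges overlapped. The pseudogene Gm13910 is 99.8% identical to Hadhb over 1428 bases and held 0.888% as many counts.

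Hsd17b10, a hydroxyacyl-CoA dehydrogenase for short and branched chains that is also a subunit of mitochondrial RNase P, averaged 28.9 ± 7.68 CPM in obese libraries and 66.7 ± 10.0 CPM in control libraries (SD, n = 4 each), with a log2 fold change of -1.21 ± 0.20 (SE; edgeR adjusted p = 0.00117). Echs1, the short-chain enoyl-CoA hydratase, averaged 95.5 ± 21.8 CPM in obese libraries and 176 ± 28.7 CPM in control libraries (SD, n = 4 each), with a log2 fold change of -0.88 ± 0.17 (SE; edgeR adjusted p = 0.00297). Hadh, the hydroxyacyl-CoA dehydrogenase of the matrix, averaged 188 ± 43.4 CPM in obese libraries and 350.0 ± 52.3 CPM in control libraries (SD, n = 4 each), with a log2 fold change of -0.89 ± 0.18 (SE; edgeR adjusted p = 0.0033). Acaa2, the matrix thiolase that ends each turn of the cycle, averaged 288 ± 81.3 CPM in obese libraries and 532 ± 85.5 CPM in control libraries (SD, n = 4 each), with a log2 fold change of -0.89 ± 0.21 (SE; edgeR adjusted p = 0.00703). In Hadh and in Acaa2 control replicate 2 stood well below the other control libraries and above all obese libraries.

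The genes of the enzymes for double bonds all fell. Decr1, the 2,4-dienoyl-CoA reductase, had 136, 138 and 95.7 CPM in treated libraries, 127, 85.7, 109 and 160.2 CPM in obese libraries and 305, 194, 268 and 321 CPM in control libraries. The lowest control value, that of replicate 2, was above the highest obese value, that of replicate 4. Its log2 fold change in obese hearts was -1.17 ± 0.21 (SE; edgeR adjusted p = 0.00156). Eci1, an enoyl-CoA isomerase, averaged 73.9 ± 18.9 CPM in obese libraries and 163 ± 26.2 CPM in control libraries (SD, n = 4 each), with a log2 fold change of -1.14 ± 0.19 (SE; edgeR adjusted p = 0.00133). Eci2, an isomerase of mitochondria and peroxisomes, averaged 73.9 ± 12.2 CPM in obese libraries and 141 ± 11.8 CPM in control libraries (SD, n = 4 each), with a log2 fold change of -0.93 ± 0.13 (SE; edgeR adjusted p = 0.00051). Ech1 averaged 582 ± 153 CPM in obese libraries and 1027 ± 139.7 CPM in control libraries (SD, n = 4 each), with a log2 fold change of -0.82 ± 0.21 (SE; edgeR adjusted p = 0.0116).

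The 3 genes of electron transfer from the first oxidation step all fell. Etfdh, the membrane enzyme that hands these electrons to ubiquinone, had 238, 232 and 158 CPM in treated libraries, 187, 137, 174 and 241 CPM in obese libraries and 439, 294, 433 and 503 CPM in control libraries. Every obese and treated library was below every control library. Its log2 fold change in obese hearts was -1.17 ± 0.20 (SE; edgeR adjusted p = 0.00143). Etfa, the alpha subunit of the electron transfer flavoprotein, averaged 198 ± 36.9 CPM in obese libraries and 391 ± 67.1 CPM in control libraries (SD, n = 4 each), with a log2 fold change of -0.98 ± 0.18 (SE; edgeR adjusted p = 0.00206). Etfb, the beta subunit, had 49.0, 30.7, 40.9 and 53.3 CPM in obese libraries, against 71.0, 49.8, 75.8 and 83.0 CPM in control libraries. Obese replicate 4 lay above control replicate 2, so the groups overlapped, and the log2 fold change was -0.69 ± 0.19 (SE; edgeR adjusted p = 0.0179). Without control replicate 4 Etfb no longer passed (edgeR adjusted p = 0.0554).

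Aldh3a2, the fatty aldehyde dehydrogenase, stands outside the cycle and turns long-chain aldehydes into fatty acids. It had 24.6, 25.2 and 24.8 CPM in treated libraries, 19.4, 22.6, 24.5 and 22.3 CPM in obese libraries and 28.9, 27.5, 30.5 and 30.3 CPM in control libraries. Each obese and treated library was below each control library, by a small margin. The log2 fold change in obese hearts was -0.40 ± 0.09 (SE; edgeR adjusted p = 0.00636), and it was 0.029, of opposite sign, with library totals and no scaling factor.

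**Figure D3:**
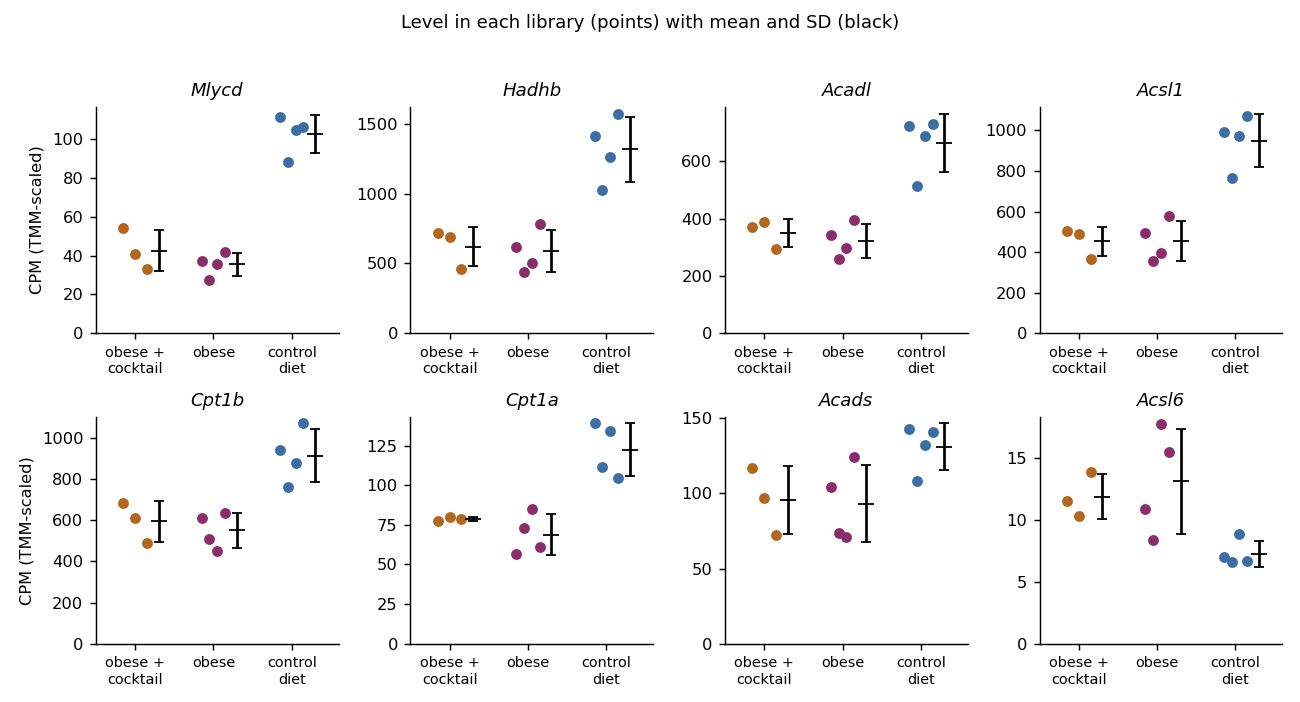
Level of 8 genes in each library (vertical axis, TMM-scaled CPM), with treated, obese and control libraries from left to right and the mean and SD in black. Mlycd, Hadhb, Acadl, Acsl1, Cpt1b and Cpt1a show control points above all treated and obese points, Acads overlaps between groups, and Acsl6 is higher in treated than in control libraries.

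The same libraries were low or high for most of the genes. Treated replicate 3 was the lowest treated library for 26 of the 33 genes, obese replicate 2 the lowest obese library for 25, and control replicate 2 the lowest control library for 30. Control replicate 2 also had the highest intronic share of its group, at 0.590%, and treated replicate 3 the highest of its group, at 0.671%, while obese replicate 2, at 0.706%, did not. The sum of the 33 genes was 4704 to 6907 CPM in treated, 4478 to 7178 CPM in obese and 8740 to 12589 CPM in control libraries. As a share of unscaled counts they took 0.563% to 0.728% in treated, 0.533% to 0.733% in obese and 0.834% to 0.972% in control libraries, again without overlap between obese and control libraries. Transcripts of the mitochondrial chromosome took 17.8% to 22.4% of counts in treated, 21.4% to 24.5% in obese and 28.2% to 32.3% in control libraries, a share in which each treated and obese library was below each control library. With those transcripts left out of the counts, 28 of the 33 genes fell and 2 rose in obese relative to control hearts. Over all genes tested, 15.6% fell and 14.4% rose in that fit.

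Measures formed within a library do not rest on scaling between libraries. The mean log2 CPM of the 33 genes minus that of 10 ventricular myocyte markers was -5.05 ± 0.02 in treated (SD, n = 3), -4.99 ± 0.10 in obese (SD, n = 4) and -4.68 ± 0.07 in control libraries (SD, n = 4). It ran from -5.08 to -4.85 in obese libraries and from -4.74 to -4.58 in control libraries. The mean of the 33 genes was thus lower also relative to the mean of these markers in every obese library. Of the 10 markers, 5 fell and 0 rose in obese hearts, with log2 fold changes from -1.20 to 0.16 and a median of -0.43. The markers did not move alike. The most lowered of them, Myl3, fell by more than the median of the 33 genes, -0.88. Myl2 ran from 1140 to 2220 CPM in obese and from 2059 to 3708 CPM in control libraries. Ttn ran from 48858 to 63677 CPM in obese and from 49029 to 65135 CPM in control libraries. The measure thus rests on which markers are averaged, and it was not formed against Myl2 and Myl3 alone. The same measure against 18 citric acid cycle genes was -1.56 ± 0.05 in treated, -1.49 ± 0.08 in obese and -1.46 ± 0.08 in control libraries, and all 3 ranges overlapped. Relative to the citric acid cycle genes of the same library, the 33 genes were thus not shown to differ between obese and control hearts, nor to be the same. No test was run on this measure.

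**Figure D4:**
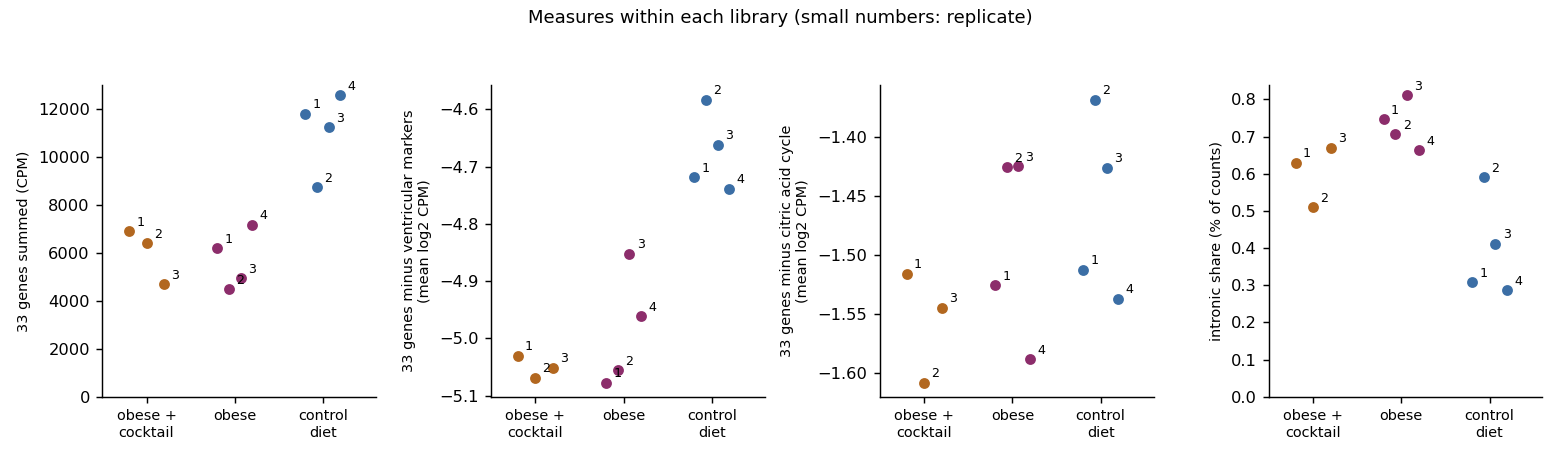
Values of each library, with treated, obese and control libraries from left to right and replicate numbers beside the points: the sum of the 33 genes (CPM), their mean log2 CPM minus that of ventricular markers and minus that of citric acid cycle genes, and the intronic share of counts (%). Obese and control libraries overlap in the panel of citric acid cycle genes and are apart in the other panels.

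Genes of neighbouring pathways moved with the 33 genes to different degrees. Of 18 citric acid cycle genes, 16 fell and 0 rose, and their median log2 fold change was -0.75, against 0.11 over all genes tested. Sucla2, a subunit of the succinate-CoA ligase, averaged 112 ± 26.2 CPM in obese libraries and 223 ± 40.2 CPM in control libraries (SD, n = 4 each), with a log2 fold change of -0.99 ± 0.18 (SE; edgeR adjusted p = 0.00187). Suclg1 and Suclg2, the other subunits of that enzyme, had log2 fold changes of -0.70 ± 0.15 (SE; edgeR adjusted p = 0.00461) and -0.89 ± 0.18 (SE; edgeR adjusted p = 0.00305). Idh3b, of NAD-linked isocitrate dehydrogenase, had a log2 fold change of -0.91 ± 0.18 (SE; edgeR adjusted p = 0.00265).

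Genes of fatty acid uptake, binding and lipolysis were lower by more. Of 9 such genes 7 fell and 0 rose, with a median of -1.21. Pnpla2, the triglyceride lipase ATGL, averaged 163 ± 29.7 CPM in obese libraries and 770.1 ± 94.5 CPM in control libraries (SD, n = 4 each), a 4.73-fold fall with a log2 fold change of -2.24 ± 0.17 (SE; edgeR adjusted p = 1.17e-05). Cd36, the fatty acid transporter of the cell surface, averaged 768 ± 135 CPM in obese libraries and 2357 ± 301 CPM in control libraries (SD, n = 4 each), with a log2 fold change of -1.62 ± 0.17 (SE; edgeR adjusted p = 8.91e-05). Lpl, the lipoprotein lipase, averaged 1957 ± 467 CPM in obese libraries and 5031 ± 686 CPM in control libraries (SD, n = 4 each), with a log2 fold change of -1.36 ± 0.21 (SE; edgeR adjusted p = 0.000717). Fabp4, a fatty acid binding protein known from adipocytes and capillary endothelium, averaged 197 ± 8.34 CPM in obese libraries and 478 ± 61.1 CPM in control libraries (SD, n = 4 each), with a log2 fold change of -1.28 ± 0.14 (SE; edgeR adjusted p = 0.000169).

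Of 14 genes of the carnitine shuttle, malonyl-CoA control and FAD supply, 7 fell and 1 rose, with a median of -0.44. Slc25a20, the carnitine-acylcarnitine carrier that links the 2 palmitoyltransferase steps, averaged 55.2 ± 14.2 CPM in obese libraries and 114 ± 18.3 CPM in control libraries (SD, n = 4 each), with a log2 fold change of -1.05 ± 0.19 (SE; edgeR adjusted p = 0.00188). Crot, the peroxisomal carnitine octanoyltransferase, and Rfk, the riboflavin kinase that supplies FAD synthesis, had log2 fold changes of -0.51 ± 0.09 (SE; edgeR adjusted p = 0.00192) and -0.67 ± 0.14 (SE; edgeR adjusted p = 0.00391). Cpt1c, the form known from neurons, was the gene that rose, from a low level. It averaged 5.97 ± 0.975 CPM in obese libraries and 2.82 ± 0.629 CPM in control libraries (SD, n = 4 each), with a log2 fold change of 1.08 ± 0.20 (SE; edgeR adjusted p = 0.00194).

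Of 18 other acyl-CoA enzymes, of amino acid breakdown, acyl-CoA activation, mitochondrial fatty acid synthesis and other roles, 10 fell and 0 rose, with a median of -0.50. Acadsb, the short and branched chain acyl-CoA dehydrogenase of isoleucine breakdown, averaged 52.2 ± 9.82 CPM in obese libraries and 117 ± 17.1 CPM in control libraries (SD, n = 4 each), with a log2 fold change of -1.17 ± 0.15 (SE; edgeR adjusted p = 0.000368). Hibadh, of valine breakdown, had a log2 fold change of -0.85 ± 0.15 (SE; edgeR adjusted p = 0.00146). The fold changes were -0.75 ± 0.14 (SE; edgeR adjusted p = 0.00252) for Gcdh, of lysine breakdown, and -0.89 ± 0.18 (SE; edgeR adjusted p = 0.00348) for Acat1, the acetoacetyl-CoA thiolase, both on the log2 scale.

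Among 14 regulators of fat oxidation, 5 fell and 0 rose, and their median was -0.12. Pdk4, the pyruvate dehydrogenase kinase that is a known target of PPAR receptors, had 252, 224, 494 and 230.4 CPM in obese libraries, against 2498, 2141, 2495 and 2851 CPM in control libraries. No obese library came near the control range, and the log2 fold change was -3.06 ± 0.30 (SE; edgeR adjusted p = 7.97e-05). Prkaa2, a catalytic subunit of AMP-activated kinase, had a log2 fold change of -0.70 ± 0.16 (SE; edgeR adjusted p = 0.00669). The estrogen-related receptors Esrrb and Esrrg had log2 fold changes of -0.65 ± 0.17 (SE; edgeR adjusted p = 0.0124) and -0.52 ± 0.14 (SE; edgeR adjusted p = 0.0132). Rxra, the partner receptor of PPAR receptors, is the other gene that fell and is named after its values were seen, with a log2 fold change of -0.40 ± 0.12 (SE; edgeR adjusted p = 0.027). Obese replicate 4 lay above control replicate 2, so its groups overlapped. It no longer passed without control replicate 1 or 3 or without obese replicate 1, 2 or 3 (edgeR adjusted p between 0.0533 and 0.0776), nor with upper-quartile scaling or among protein-coding genes alone, and its value was 0.023, of opposite sign, with library totals and no scaling factor.

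Ppara and Ppargc1a, which encode activators of the pathway, did not pass the test. Ppara, the fatty acid receptor of heart and liver, had 50.3, 26.0, 33.5 and 56.2 CPM in obese libraries, against 48.0, 45.3, 45.1 and 44.0 CPM in control libraries. The obese libraries spread on both sides of the control libraries, and the log2 difference was -0.14 (95% interval -0.55 to 0.28; edgeR adjusted p = 0.618). Ppargc1a, the coactivator PGC-1alpha, had 328, 88.7, 156 and 231 CPM in obese libraries, against 177, 148, 163 and 186 CPM in control libraries. Again the obese libraries lay on both sides, and the log2 difference was 0.25 (95% interval -0.39 to 0.89; edgeR adjusted p = 0.542).

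Markers of other cell types were measured beside these results. White adipocyte markers rose at 5 of 8 genes, with 0 fallen, and their sum was 0.651 to 13.2 CPM in obese and 0.404 to 0.889 CPM in control libraries. Their defining gene Adipoq averaged 0.669 ± 0.6 CPM in obese libraries and 0.0156 ± 0.0312 CPM in control libraries (SD, n = 4 each). Brown adipocyte markers, with 2 of 5 genes tested, had 1 fallen and 0 risen. The sum of the 5 was 14.8 to 21.0 CPM in obese and 24.9 to 31.8 CPM in control libraries. Nearly all of it was Cidea, the gene that fell, and Ebf2. Ucp1, Elovl3 and Zic1 each had 0.128 CPM or less in every library, so the sum does not show brown adipocytes. Of 8 atrial markers 0 passed the test, with a median of 4.03 on the log2 scale. Of 8 endothelial markers 2 fell and 0 rose, of 8 fibroblast markers 0 fell and 1 rose, and of 8 macrophage markers 0 changed either way. Endothelial marker sums were 852 to 983 CPM in obese and 1006 to 1167 CPM in control libraries. The part of these cell types in the differences of the 33 genes was not tested.

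The cocktail was compared with vehicle in obese hearts. Of the 33 genes 0 fell and 0 rose, and over all 23779 genes tested 0, or 0%, passed edgeR's adjusted threshold. At an unadjusted p under 0.05 edgeR gave 0 of the 33 genes and 2425 of all genes (10.2%), and DESeq2 called 132 genes after adjustment, with 0 of the 33 among them. The median log2 difference of the 33 genes was 0.07, against -0.01 for all genes, with a range from -0.15 for Acad10 to 0.34 for Acsl3. The sign of that median changed without obese replicate 2 and without treated replicate 1.

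The 6 genes with the smallest p leaned to higher values in treated hearts, and none passed. For Aldh3a2, 3 of 3 treated libraries lay above the 4 obese libraries in the values given above, the only gene of the 33 with that pattern, which 4.68% of all genes tested showed, while 5.45% showed the opposite and 0 of the 33 did. Its log2 difference was 0.16 (95% interval -0.05 to 0.38; edgeR adjusted p = 0.573). The log2 difference was 0.31 (95% interval -0.11 to 0.72; edgeR adjusted p = 0.589) for Acss1 and 0.26 (95% interval -0.10 to 0.62; edgeR adjusted p = 0.603) for Mlycd. For Acsl3 it was 0.34 (95% interval -0.16 to 0.84; edgeR adjusted p = 0.628). It was 0.19 (95% interval -0.13 to 0.51; edgeR adjusted p = 0.658) for Cpt1a and 0.27 (95% interval -0.19 to 0.72; edgeR adjusted p = 0.672) for Hsd17b10.

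The intervals show what a difference of this size of experiment leaves undetermined. For Mlycd, the gene with the largest fall in obese hearts, the treated mean was 42.6 ± 10.6 CPM (SD, n = 3) and the obese mean 35.5 ± 5.88 CPM (SD, n = 4), and the upper bound of the log2 difference, 0.62, is smaller than its fall of 1.53 between obese and control hearts. For Hadhb the means were 621 ± 139.7 CPM in treated and 587 ± 149 CPM in obese libraries, with a log2 difference of 0.08 (95% interval -0.39 to 0.55; edgeR adjusted p = 0.916). For Cpt1b they were 593 ± 97.8 CPM in treated and 550.0 ± 85.3 CPM in obese libraries, with a log2 difference of 0.11 (95% interval -0.26 to 0.47; edgeR adjusted p = 0.847).

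Treated hearts were also set against control hearts. This comparison and the obese comparison share the same 4 control libraries, and the obese libraries enter both of the others, so the values are given side by side and are not independent. Of the 33 genes 25 fell, 1 rose and 7 did not pass, where 8.39% of all genes tested fell and 7.43% rose. With library totals and no scaling factor 1.64% of all genes and 17 of the 33 genes fell, and 29.1% of all genes and 2 of the 33 genes rose. The median log2 fold change was -0.83, against 0.05 for all genes. Each treated library was below each control library for 26 of the 33 genes, against 14.1% of all genes, and above for Acsl6, against 13.7%. Markers of other cell types differed here too: of 8 white adipocyte markers 4 rose and 0 fell, and their sum was 1.29 to 15.2 CPM in treated and 0.404 to 0.889 CPM in control libraries. Brown adipocyte markers, with 2 of 5 genes tested, had 1 fallen and 0 risen. The sum of the 5 was 19.6 to 23.2 CPM in treated and 24.9 to 31.8 CPM in control libraries, again nearly all of it Cidea and Ebf2. Of 8 endothelial markers 2 fell and 0 rose, with sums of 805 to 935 CPM in treated and 1006 to 1167 CPM in control libraries. Ventricular markers fell at 2 of 10 genes, with 0 risen. Of 8 atrial markers 0 passed, with a median log2 difference of 5.79, and of 8 fibroblast and 8 macrophage markers 0 passed. Their part in the differences of the 33 genes was not tested.

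Mlycd again had the smallest p, with a mean of 42.6 ± 10.6 CPM in treated (SD, n = 3) and 102 ± 9.87 CPM in control libraries (SD, n = 4) and a log2 fold change of -1.27 ± 0.17 (SE; edgeR adjusted p = 0.00122). Eci2 had a log2 fold change of -0.81 ± 0.14 (SE; edgeR adjusted p = 0.00426) and Acsl1 one of -1.07 ± 0.19 (SE; edgeR adjusted p = 0.00448). Acadl had a log2 fold change of -0.92 ± 0.18 (SE; edgeR adjusted p = 0.00643) and Decr1 one of -1.14 ± 0.23 (SE; edgeR adjusted p = 0.00713). For Eci1 the log2 fold change was -1.03 ± 0.21 (SE; edgeR adjusted p = 0.00857).

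Among the other entry and activation genes that fell in treated relative to control hearts, the log2 fold change was -0.91 ± 0.20 (SE; edgeR adjusted p = 0.0103) for Acss1 and -0.93 ± 0.22 (SE; edgeR adjusted p = 0.0152) for Acsf2. It was -0.36 ± 0.10 (SE; edgeR adjusted p = 0.0296) for Acss2, and 0.070 without a scaling factor. It was -0.64 ± 0.15 (SE; edgeR adjusted p = 0.0147) for Cpt1a, -0.62 ± 0.17 (SE; edgeR adjusted p = 0.0301) for Cpt1b and -0.89 ± 0.22 (SE; edgeR adjusted p = 0.0179) for Cpt2. Acsl6, the gene that rose, had a log2 fold change of 0.71 ± 0.22 (SE; edgeR adjusted p = 0.0462). It no longer passed when any 1 library other than obese replicate 2 or 3 was left out (edgeR adjusted p up to 0.189).

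The dehydrogenases followed. The log2 fold change in treated relative to control hearts was -0.86 ± 0.20 (SE; edgeR adjusted p = 0.0134) for Acadvl and -0.93 ± 0.22 (SE; edgeR adjusted p = 0.0168) for Acadm. It was -0.80 ± 0.17 (SE; edgeR adjusted p = 0.00999) for Acad11. For Acad9 it was -0.36 ± 0.10 (SE; edgeR adjusted p = 0.0296), and 0.066 without a scaling factor. Acads and Acad10 did not pass, with log2 differences of -0.46 (95% interval -0.91 to -0.01; edgeR adjusted p = 0.149) and 0.47 (95% interval 0.04 to 0.89; edgeR adjusted p = 0.12).

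In the later steps the log2 fold change in treated relative to control hearts was -1.08 ± 0.23 (SE; edgeR adjusted p = 0.00888) for Hadhb and -0.96 ± 0.23 (SE; edgeR adjusted p = 0.0167) for Hadha. It was -0.94 ± 0.22 (SE; edgeR adjusted p = 0.0144) for Hsd17b10 and -0.83 ± 0.20 (SE; edgeR adjusted p = 0.0159) for Hadh. It was -0.85 ± 0.23 (SE; edgeR adjusted p = 0.0259) for Acaa2, -0.71 ± 0.19 (SE; edgeR adjusted p = 0.0266) for Echs1 and -0.80 ± 0.23 (SE; edgeR adjusted p = 0.0341) for Ech1. Of the electron carriers, Etfdh had a log2 fold change of -0.99 ± 0.22 (SE; edgeR adjusted p = 0.0123) and Etfa one of -0.91 ± 0.20 (SE; edgeR adjusted p = 0.0112), while Etfb did not pass, at -0.65 (95% interval -1.10 to -0.20; edgeR adjusted p = 0.0522). Acsl3, Acsl4, Acsl5 and Aldh3a2 also did not pass.

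Many calls of this comparison were lost when a single library was left out, treated replicate 3 above all. Without it, 5 of the 33 genes fell (Mlycd, Eci2, Acsl1, Acadl and Decr1). These 5 also passed when any other single library was left out. Over all genes, 1011 were called without treated replicate 3, against 3760 with all libraries. The median log2 fold change of the 33 genes was -0.69 without it and -0.83 with all libraries. Without control replicate 1, 3 or 4 the number that fell was 19, 20 and 19, against 4.37%, 5.87% and 4.36% of all genes tested. Acad9, Acss2, Cpt1b, Ech1, Acaa2 and Acsl6 no longer passed in any of these cases. The number that fell was 23 without treated replicate 1, against 5.13% of all genes, and 21 without treated replicate 2, against 5.77%. Without obese replicate 3 and treated replicates 2 and 3, which leaves 1 treated library assumed to vary like the other groups, 0 of the 33 genes and 378 of all genes were called, and the median of the 33 genes was -0.63. Over all genes tested, 15.8% were called with all libraries. With the intronic share as a covariate 1 of the 33 genes fell, against 1.07% of all genes tested.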

How the data were processed

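RNA from mouse hearts was sequenced as 11 libraries. The authors deposited 1 table of whole-number counts per Ensembl gene, used here as read counts. Per the submitters' processing notes, cutadapt, HISAT2 and StringTie were used with build GRCm38, and versions, the annotation, the counting settings and strand handling were not given in the sources used here. If the counts were derived from transcript coverage, overlapping and near-identical genes may share reads. Symbols, positions and lengths came from GENCODE for GRCm38, which named 55227 of 55487 identifiers.

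Genes were kept by filterByExpr (minimum count 10, minimum total 15) and scaled by TMM. They were fitted together, with all 3 groups in the model, in edgeR 4.0.16 under R 4.3.3 (robust quasi-likelihood, Benjamini-Hochberg, threshold 0.05). The procedure was also run on simulated counts with the same spread for every gene, few changed genes and no scaling shift between groups. That run does not bear on scaling here, where TMM factors were 0.733 to 0.954 in control and 1.02 to 1.19 in obese libraries. Standard errors of log2 fold changes were obtained from the F statistic. The common biological coefficient of variation was 0.259. No library was a repeat of another: within groups all pairs differed beyond sampling noise. The members, lists and alternatives were chosen with earlier results of these data known. All 33 genes were named: each with its test in obese against control hearts, the 6 smallest p and every call in the other comparisons, and from each other pathway list the 4 smallest p, plus Ppara, Ppargc1a and Slc25a20, and Rxra, added after its values were seen. A further 4 genes are named as overlapping or near-identical partners (Acad12, Dvl2, Gm44502 and Gm13910). Adipoq, Cidea, Ebf2, Elovl3, Myh6, Myl2, Myl3, Ttn, Ucp1 and Zic1 are named as markers. Near-identical copies were found with BLAST 2.17.0 at 95% identity over 300 bases or more. Alternatives were upper-quartile and DESeq2 1.42.0 size-factor scaling, no low-count filter, DESeq2, only the groups compared, protein-coding genes only, no mitochondrial genes, a replicate block, the intronic share as a covariate and leaving out libraries. Unscaled totals and sums with near-identical partners were added after the data were seen. Depth of 52.7 M counts or more per library limits precision less than the spread between libraries.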

Additional observations from a re-analysis of the deposited data

Results flagged for a closer look

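Control replicate 2 stood apart from the other control libraries in 2 of the 33 genes, out of 68 groups of 4 libraries examined, where chance alone gives about 1 in 20. Hadh was at 272 CPM in that library, against 371 to 385 CPM in the other control libraries. Acaa2 was at 405 CPM, against 564 to 583 CPM in the others. Control replicate 2 was the lowest control library for 30 of the 33 genes and had the highest intronic share of its group, at 0.590% of counts. Without it, the log2 fold changes of Hadh and Acaa2 in obese hearts were larger falls, and the median of the 33 genes was -1.01 in place of -0.88.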

How the results depend on the processing

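Between obese and control hearts, the count of the 33 genes that fell stayed between 22 and 29 under every alternative except the intronic share as a covariate, which gave 0 fallen, 0 risen and 155 genes in all. Leaving out 1 library gave 27 to 29 fallen, 1 to 2 risen and 4917 to 8153 genes in all, and summing Acad10 with Acad12 gave 1 risen, with Acad10 at -0.84. Log2 fold changes of opposite sign were, with the covariate, Esrrg 0.0032 and Ppara 0.0099. With unscaled library totals they were Acss2 0.025, Rxra 0.023, Aldh3a2 0.029, Acsl4 0.11 and Ppara 0.26, and with unscaled nuclear totals Ppara 0.13. Unscaled totals moved the median of all genes to 0.53, and the 33 genes stayed 1.0 below it. Ppara ranged from -0.34 to 0.035 and Ppargc1a from -0.088 to 0.50 when 1 library was left out.

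Between treated and obese hearts 0 of the 33 genes passed under every alternative. All genes called were 2 with upper-quartile scaling, 2 with no low-count filter, 2 among protein-coding genes, 132 with DESeq2 and 0 to 24 leaving out 1 library (24 without obese replicate 3), and 5 without the 3 libraries high in atrial markers. The median of the 33 genes was -0.051 with the covariate and ranged from -0.0099 to 0.19 leaving out 1 library.

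Between treated and control hearts the covariate gave 1 fallen, 0 risen and 421 genes. DESeq2 size factors in edgeR gave 0 risen, no low-count filter 0 risen, and unscaled totals 2 risen and 7300 genes, with Acad9 at 0.066 and Acss2 at 0.070. Leaving out 1 library gave 5 to 26 fallen, 0 to 1 risen and 1011 to 4652 genes, and leaving out the 3 libraries high in atrial markers gave 0 fallen, 0 risen and 378 genes. The difference in Cpt1a share, in percentage points, ranged from -1.0 to 0.24 for obese against control, -0.30 to 0.96 for treated against obese and -0.55 to 0.39 for treated against control. The causes were not tested.

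The replicate numbers were not shown to pair libraries, and pairing was not tested. Of 10 same-numbered pairs, 5 deviated together with a correlation over 0.1, and 11 of 20 matches were best with the own number. Same-numbered correlations ran from -0.41 to 0.56. The highest of all pairs between groups were obese with treated replicate 1 (0.56) and obese with treated replicate 3 (0.47). With a replicate block, 29 of the 33 genes fell and 2 rose in obese relative to control hearts, 0 changed in treated relative to obese hearts, and 23 fell and 1 rose in treated relative to control hearts. Over all genes tested with that block, 16% fell and 13.9% rose in the obese and control comparison. In treated relative to control hearts 6% fell and 5.32% rose. Depth does not limit the 33 genes, the lowest of which, Acsl3, had 1.97 CPM or more in each library.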
